A study of Mus musculus with 8 samples.

Results

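The genes described here, in mouse macrophages, belong to the amino acid stress response driven by the transcription factor ATF4: Atf4, Ddit3, Atf3, Trib3, Nupr1, Chac1, Asns, Psat1, Mthfd2 and Slc7a5. They are 10 of the 8857 features tested, found by gene symbol among the probes of the array. They were chosen from these same data. Of the 10 genes, 8 were picked because interferon gamma (IFNγ) raised them and opsonised cells added to IFNγ lowered them again, and the other 2, Atf3 and Ddit3, were picked for contrast. The comparisons of IFNγ with unstimulated cells and of both stimuli with IFNγ are therefore given for these genes as descriptions, without a test.

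The macrophages were grown from bone marrow of C57BL/6 mice with medium conditioned by L929 cells, a source of the growth factor M-CSF, which all groups received. On day 8 they were given for 6 h both stimuli, IFNγ alone at 10 ng/ml, opsonised cells alone (sheep erythrocytes carrying bound IgG2a, 10 per macrophage), or neither. Each of the 4 groups has 2 arrays. Uncoated red cells were not among the samples analysed here, so the effects of the antibody coat and of red cell uptake cannot be told apart. The labels do not say whether the 2 replicates of a group were separate mice or cultures. The p-values therefore reflect array-to-array spread that may be technical.

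Cells that run short of amino acids, accumulate misfolded protein in the endoplasmic reticulum (ER), sense double-stranded RNA or lack heme activate kinases that phosphorylate the translation initiation factor eIF2α. This slows protein synthesis in general but favours translation of the Atf4 mRNA. ATF4 then switches on genes for amino acid uptake, amino acid synthesis and one-carbon metabolism, together with further transcription factors and feedback inhibitors. Because much of this control acts on translation, an mRNA level of Atf4 is not a measure of ATF4 protein, which was not measured. In this bulk RNA a change in the share of responding cells and a change in RNA per cell cannot be told apart.

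Levels are the deposited probe intensities on a linear scale, in which most silent probes lie near 174.4 and probes above a floor of 204.9 were taken as above background. Of the 13 probes of the 10 genes, 12 exceeded the floor in both replicates of some group. The exception was the dimmest of 3 Asns probes. Each gene is given by its brightest probe, and all 10 were above the floor on every array. Of 8 macrophage markers, 6 had a probe, and these 6 were above the floor on every array, including the F4/80 gene Adgre1 (2633 to 3715) and the lysozyme gene Lyz2 (25539 to 29945). Among markers of other cells that had a probe, 0 of 4 erythroid and 0 of 6 T and NK cell markers passed the floor. Of 7 neutrophil markers with a probe 5 passed, and the summed intensity of all 7 was 4231 to 4300 with both stimuli, 3547 to 3823 with IFNγ, 2899 to 3472 with opsonised cells and 3470 to 3568 unstimulated. The part of other cells in the results below was not tested. Markers of B cells (2 of 5 above the floor), dendritic cells (1 of 6), mast cells with basophils (1 of 5) and fibroblasts (1 of 6) were at most 371.3 on any array. Over all probes, replicate arrays had correlations of 0.992 to 0.994.

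ATF4, as a dimer with a C/EBP protein, binds the C/EBP-ATF response element, whose core was searched as TGATGNAA on both strands. RefSeq promoters (GRCm38.p6, 250 bases before to 50 bases from the annotated start) matched 9 of the 10 genes by symbol. Slc7a5 was not matched. The core was found in the promoters of 5 of these 9 genes (55.6%), against 1219 of 27025 genes in the whole table (4.51%). The genes were named as part of the ATF4 response, so nothing is read from this share. The 5 promoters are shown because the same short element recurs in Atf3, which was higher with both stimuli than with IFNγ alone, and in 4 genes that were lower. Capitals mark the core, read as TTGCATCA or TTACATCA where it lies on the other strand.
Atf3: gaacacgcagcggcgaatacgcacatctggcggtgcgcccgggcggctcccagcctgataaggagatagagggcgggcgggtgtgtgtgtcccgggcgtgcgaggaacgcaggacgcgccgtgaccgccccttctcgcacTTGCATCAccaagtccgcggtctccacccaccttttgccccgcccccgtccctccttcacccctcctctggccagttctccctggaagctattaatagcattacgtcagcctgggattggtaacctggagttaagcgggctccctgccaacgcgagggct
Trib3: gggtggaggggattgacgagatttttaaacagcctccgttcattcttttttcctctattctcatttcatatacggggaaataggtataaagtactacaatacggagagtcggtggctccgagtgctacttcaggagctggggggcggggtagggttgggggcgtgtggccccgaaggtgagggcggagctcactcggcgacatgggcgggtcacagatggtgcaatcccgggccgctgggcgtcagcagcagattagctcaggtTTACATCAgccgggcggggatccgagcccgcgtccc
Nupr1: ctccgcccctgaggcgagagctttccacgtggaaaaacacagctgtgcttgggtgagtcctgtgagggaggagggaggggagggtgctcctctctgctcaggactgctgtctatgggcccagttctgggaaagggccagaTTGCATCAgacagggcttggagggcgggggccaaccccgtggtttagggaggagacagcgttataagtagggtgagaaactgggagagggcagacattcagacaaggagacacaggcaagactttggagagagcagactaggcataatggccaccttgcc
Chac1: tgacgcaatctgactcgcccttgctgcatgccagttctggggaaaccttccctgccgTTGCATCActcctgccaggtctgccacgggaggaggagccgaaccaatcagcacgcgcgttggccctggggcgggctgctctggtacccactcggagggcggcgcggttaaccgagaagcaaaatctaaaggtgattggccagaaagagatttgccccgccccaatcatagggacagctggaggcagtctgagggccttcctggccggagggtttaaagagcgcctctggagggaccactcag
Asns: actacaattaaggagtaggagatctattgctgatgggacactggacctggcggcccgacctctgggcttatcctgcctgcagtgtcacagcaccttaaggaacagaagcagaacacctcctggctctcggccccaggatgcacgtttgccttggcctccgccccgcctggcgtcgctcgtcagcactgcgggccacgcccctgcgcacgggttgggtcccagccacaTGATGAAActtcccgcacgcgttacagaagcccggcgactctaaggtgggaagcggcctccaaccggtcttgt

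The windows lie at chr1:191183284-191183583 (minus strand) for Atf3, chr2:152344011-152344310 (minus) for Trib3, chr7:126625421-126625720 (minus) for Nupr1, chr2:119350992-119351291 (plus) for Chac1 and chr6:7693160-7693459 (minus) for Asns. With the annotated start as position 0, the core spans -110 to -103 in both Atf3 and Nupr1. It spans -193 to -186 in Chac1, -23 to -16 in Asns, and 14 to 21, downstream of the start, in Trib3. In Asns it reads TGATGAAA on the gene's own strand. A match is a description of letters, not a shown binding site. The promoters of Atf4, Ddit3, Psat1 (2 annotated starts) and Mthfd2 did not hold these letters in this window. The NRF2 element core TGACNNNGC was found in Asns alone among the 9 (11.1%, against 14% of all genes), at -172 to -164.

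**Figure D1:**
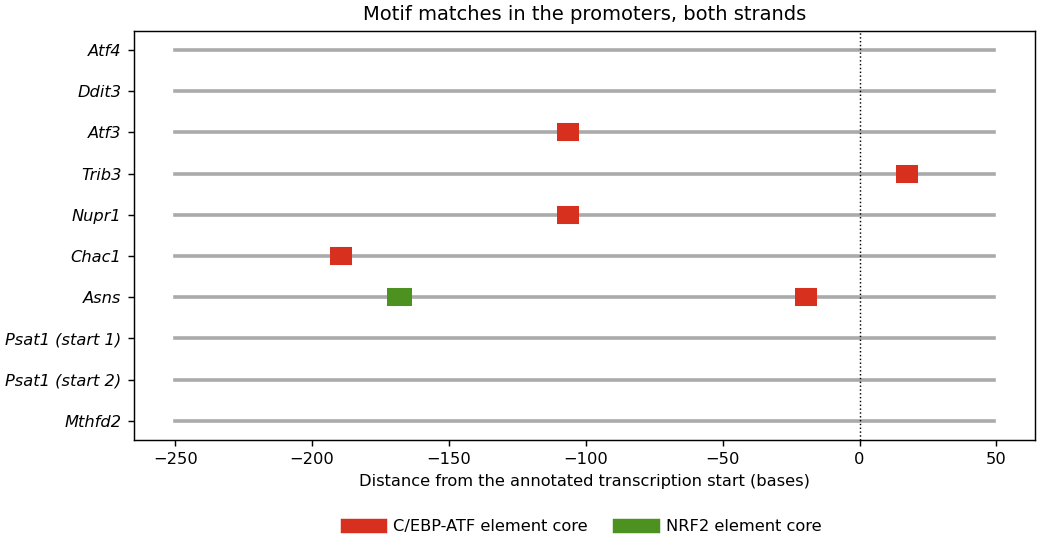
Positions of 2 motifs in the 300-base promoters of 9 genes (Psat1 has 2 annotated starts); the x axis is the distance in bases from the annotated transcription start, and coloured blocks are matches on either strand. The C/EBP-ATF core appears in Atf3, Trib3, Nupr1, Chac1 and Asns, and the NRF2 core in Asns.

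Among the transcription factor genes, Atf4 itself had intensities of 1400 and 1400 with both stimuli, 1714 and 1720 with IFNγ, 1275 and 1632 with opsonised cells, and 1078 and 926.9 unstimulated. The unstimulated arrays were the lowest and the IFNγ arrays the highest, while the arrays with opsonised cells alone spanned those with both stimuli. The log2 difference was 0.78 ± 0.12 for IFNγ against unstimulated cells and -0.29 ± 0.12 for both stimuli against IFNγ (here and below, ± is the standard error of the fit, 2 arrays per group).

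Ddit3 encodes CHOP, a transcription factor that promotes cell death under lasting stress and a known target of ATF4. Its intensities were 1258 and 1070 with both stimuli, 1372 and 1283 with IFNγ, 940.3 and 1171 with opsonised cells, and 737.9 and 781 unstimulated. The order of the groups matched that of Nupr1 and Trib3 below, with IFNγ on top. The level with both stimuli lay below that with IFNγ with no overlap (log2 difference -0.19 ± 0.12), so Ddit3, chosen as a contrast, had the same direction as the other genes but the smallest drop. A second, dimmer Ddit3 probe gave -0.27 ± 0.13.

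Atf3 encodes a stress-induced repressor of the ATF family that also restrains inflammatory genes in macrophages. It had 1789 and 2012 with both stimuli, 1500 and 1328 with IFNγ, 1374 and 1778 with opsonised cells, and 688.3 and 680 unstimulated. It was the only 1 of the 10 genes with its highest level under both stimuli, 2.77-fold the unstimulated level. The log2 difference between both stimuli and IFNγ was 0.43 ± 0.13.

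Of the feedback and chromatin-associated regulators, Trib3 encodes a pseudokinase that is induced by ATF4 and CHOP and inhibits them. It stood close to background, at 305.9 and 282.5 with both stimuli, 371.5 and 356.1 with IFNγ, 246.9 and 275.1 with opsonised cells, and 223.2 and 243.2 unstimulated. All 4 groups were separate, in the order IFNγ, both, opsonised cells, unstimulated. The separation of opsonised cells from both stimuli and from unstimulated cells was narrow. The log2 differences of 0.64 ± 0.11 (IFNγ against unstimulated) and -0.31 ± 0.11 (both against IFNγ) are understated at such levels, since background had not been subtracted. With a normexp background correction they were 1.11 and -0.49.

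Nupr1 encodes a small stress-induced chromatin protein. Its intensities were 1674 and 1708 with both stimuli, 2271 and 2145 with IFNγ, 875.2 and 942.7 with opsonised cells, and 553 and 642.6 unstimulated. It had the largest difference of the 10 genes between IFNγ and unstimulated cells, 3.70-fold (log2 1.89 ± 0.11), and its level with both stimuli was still 1.86-fold that with opsonised cells alone. Both stimuli stood below IFNγ by a log2 difference of -0.38 ± 0.11.

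Chac1, the glutathione-degrading enzyme gene that is a sensitive readout of ATF4, had 309.4 and 343.2 with both stimuli, 497.6 and 594.1 with IFNγ, 366.2 and 381.8 with opsonised cells, and 210.1 and 233 unstimulated. Each stimulus alone gave a level above that of the combination, narrowly so for opsonised cells (log2 difference of the combination -0.20 ± 0.12). The log2 difference between both stimuli and IFNγ was -0.74 ± 0.12. The normexp correction gave an IFNγ log2 difference of 2.06, against 1.30 ± 0.12 uncorrected.

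Asns encodes asparagine synthetase, the classic amino acid response gene. Its brightest probe read 1177 and 1326 with both stimuli, 2220 and 2312 with IFNγ, 1258 and 1364 with opsonised cells, and 1229 and 991 unstimulated. The IFNγ arrays stood far above the rest. The arrays with both stimuli overlapped those with opsonised cells and the unstimulated ones, and the last pair of groups was narrowly separate. The log2 difference was 1.04 ± 0.12 for IFNγ and -0.86 ± 0.12 for both against IFNγ. The second Asns probe above the floor gave 1.03 ± 0.12 and -0.66 ± 0.12.

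Psat1 encodes phosphoserine aminotransferase, an enzyme of serine synthesis. It had 1211 and 1282 with both stimuli, 1545 and 1659 with IFNγ, 911.3 and 931.7 with opsonised cells, and 972 and 1093 unstimulated. It was the only 1 of the 10 with its lowest level under opsonised cells alone. The log2 difference was 0.64 ± 0.11 for IFNγ and -0.36 ± 0.11 for both against IFNγ.

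Mthfd2 encodes a mitochondrial folate enzyme that feeds one-carbon units to purine synthesis. It had 488.2 and 545.2 with both stimuli, 688.4 and 694.6 with IFNγ, 617.8 and 587.6 with opsonised cells, and 429.3 and 339.3 unstimulated. As with Chac1, the 4 groups were separate and each stimulus alone gave more than the combination. Against opsonised cells alone the log2 difference of the combination was small (-0.22 ± 0.13). The log2 difference was 0.86 ± 0.13 for IFNγ and -0.42 ± 0.13 for both against IFNγ.

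Slc7a5 encodes LAT1, the transporter through which cells take up leucine and tryptophan. It had 662.6 and 659.7 with both stimuli, 1435 and 1271 with IFNγ, 1419 and 1045 with opsonised cells, and 1076 and 918.9 unstimulated. It was the only 1 of the 10 with a level under both stimuli below the unstimulated one, with a log2 difference of -0.59 ± 0.13. Against IFNγ alone the log2 difference was -1.03 ± 0.13, the largest drop among the 10, while its IFNγ difference of 0.44 ± 0.13 was the smallest.

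**Figure D2:**
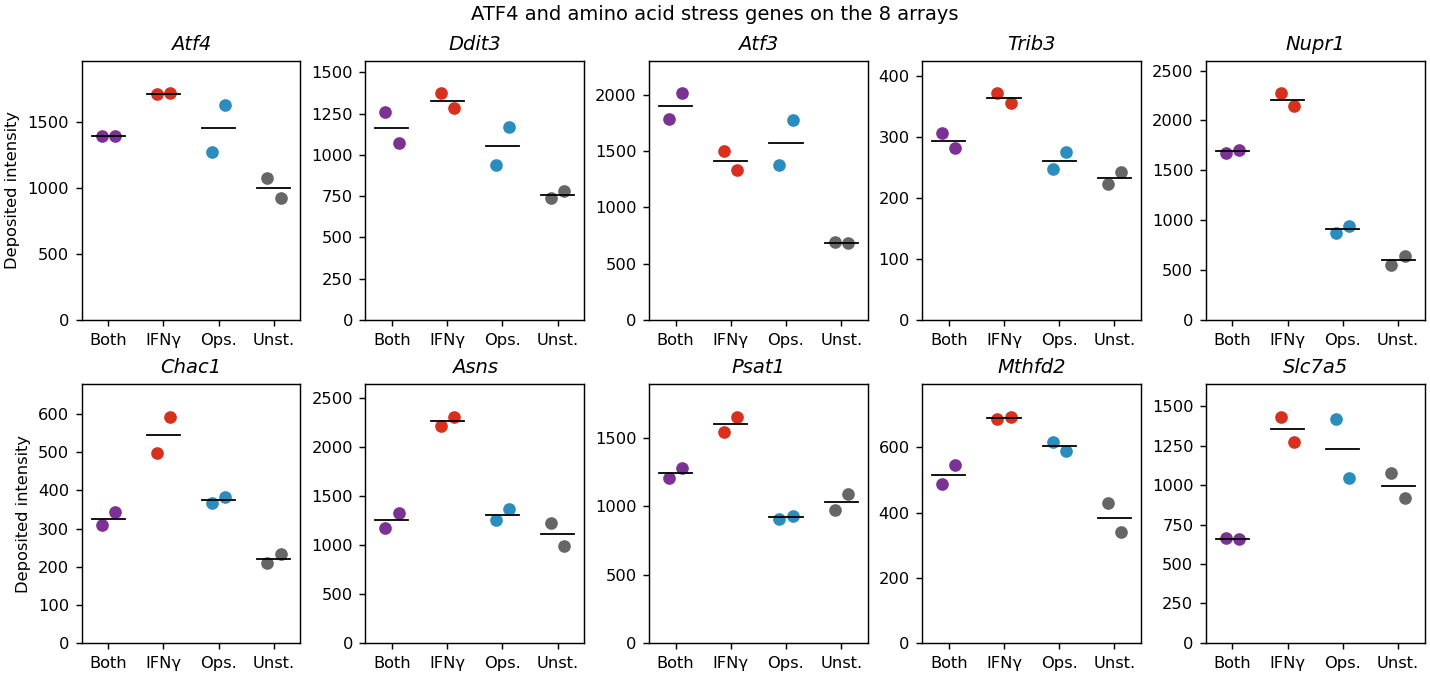
Deposited intensity (y axis, linear, from 0) of the 10 genes on each of the 8 arrays, as 1 panel per gene; points are arrays, lines are group means, and the groups are both stimuli, IFNγ, opsonised cells (Ops.) and unstimulated cells (Unst.). The IFNγ arrays are the highest in every panel except Atf3 (highest with both stimuli) and Slc7a5, where 1 array with opsonised cells lies between the 2 IFNγ arrays.

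Over the 10 genes the median log2 difference was 0.83 for IFNγ against unstimulated cells (all 8857 features, median -0.05) and -0.37 for both stimuli against IFNγ (all features -0.01). Both IFNγ arrays exceeded both unstimulated arrays for 10 of 10 genes, and 24.3% of all features did so. Both arrays with the combination were below both IFNγ arrays for 9 of 10, and 29.1% of all features were. Both arrays with the combination were above both unstimulated arrays for 8 of 10 (not Asns or Slc7a5), and 28.5% of all features were. These counts follow from how the genes were chosen and carry no further weight. The share of the IFNγ log2 difference that remained with both stimuli varied among them. It was 79.6% for Nupr1, 75.9% for Ddit3 and 62.3% for Atf4. It was 52.2% for Trib3, 50.7% for Mthfd2, and 43.1% each for Psat1 and Chac1. Ddit3 kept 64.3% by its second probe, and 61.5% to 90.4% when single arrays were left out (Atf4 56.1% to 66.9%). Such ranges overlapped for Trib3 (43.2% to 61.1%), Mthfd2 (38.6% to 60%), Psat1 (34.3% to 49.8%) and Chac1 (37.3% to 48.8%). The order of these genes by share is therefore not settled. Slc7a5, below the unstimulated level with both stimuli, had -133%, and Atf3, highest with both, had 141%. Asns kept 17.2% by its brightest probe and 35.9% by its second, whose arrays with both stimuli (524.3 and 561.6) lay above the unstimulated ones (442.8 and 398.8). The Asns share rested on single arrays: it was 2.7% without unstimulated replicate 2, 28% without unstimulated replicate 1 and 8.96% without replicate 2 of both stimuli. That of Slc7a5 was -214% without unstimulated replicate 2 and -85.5% without unstimulated replicate 1.

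Opsonised cells alone changed 6 of the 10 genes, all upward: Atf3, Chac1, Mthfd2, Nupr1, Atf4 and Ddit3. Over all features, 6.38% were called higher and 6.56% lower with opsonised cells (limma, adjusted p under 0.05). The stated rule for the genes other than Atf3 and Ddit3 did not use this comparison. For Atf3 and Ddit3, picked for contrast on grounds not stated further, the comparison may have entered the choice. The 2 unstimulated arrays are shared with the IFNγ comparison used in the choice, so the 2 comparisons are not independent. Atf3 rose most, by a log2 change of 1.19 ± 0.13 (2.28-fold, limma adjusted p = 3.3e-07), followed by Chac1 (0.76 ± 0.12, adjusted p = 0.000121). After normexp correction these log2 changes were 1.35 and 1.33. Mthfd2 rose by 0.66 ± 0.13 (adjusted p = 0.000833) and Nupr1 by 0.61 ± 0.11 (adjusted p = 0.000627). Smaller rises were found for Atf4 (0.53 ± 0.12, adjusted p = 0.00474) and Ddit3 (0.47 ± 0.12, adjusted p = 0.0135). The other 4 did not pass the test: Slc7a5 (0.29 ± 0.13, adjusted p = 0.173), Asns (0.25 ± 0.12, adjusted p = 0.2), Trib3 (0.16 ± 0.11, adjusted p = 0.4) and Psat1 (-0.16 ± 0.11, adjusted p = 0.401).

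Single arrays decided some of these calls. Without opsonised replicate 2 the adjusted p was 0.103 for Atf4 and 0.182 for Ddit3, and Slc7a5 was called instead (0.51, adjusted p = 0.0242). Without unstimulated replicate 2 it was 0.103 for Atf4 and 0.0543 for Ddit3, and without unstimulated replicate 1 it was 0.112 for Ddit3. The calls of Atf3, Chac1, Mthfd2 and Nupr1 held in all 16 alternatives tried.

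For 7 genes (Atf4, Ddit3, Trib3, Nupr1, Chac1, Asns and Mthfd2) both arrays with opsonised cells alone were above both unstimulated arrays, and both arrays with the combination were below both IFNγ arrays. In Trib3 and Asns the gap between opsonised and unstimulated arrays was narrow, and the rise was not called. Of all features 24.3% met the first condition and 3.27% met both, and since the second chose the genes, nothing is read from the count. The interaction, the log2 change by opsonised cells with IFNγ minus that without it, was negative for all 10 genes. It was -1.50 ± 0.17 for Chac1, -1.32 ± 0.19 for Slc7a5, -1.11 ± 0.17 for Asns and -1.08 ± 0.18 for Mthfd2. For Nupr1 (-0.99 ± 0.16), Atf4 (-0.82 ± 0.17), Atf3 (-0.77 ± 0.18) and Ddit3 (-0.66 ± 0.18) it was smaller, and for Trib3 (-0.47 ± 0.16) and Psat1 (-0.20 ± 0.16) smallest. After normexp correction it was -2.37 for Chac1, and -0.80 for Trib3 stood beyond the -0.75 of Ddit3. It holds the comparison of both stimuli with IFNγ that chose the genes, so it is given without a test. Over all features 49.9% had a positive interaction. Atf3, which went up with opsonised cells in both settings, shared the negative sign because its difference with IFNγ (0.43) was smaller than that without (1.19).

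**Figure D3:**
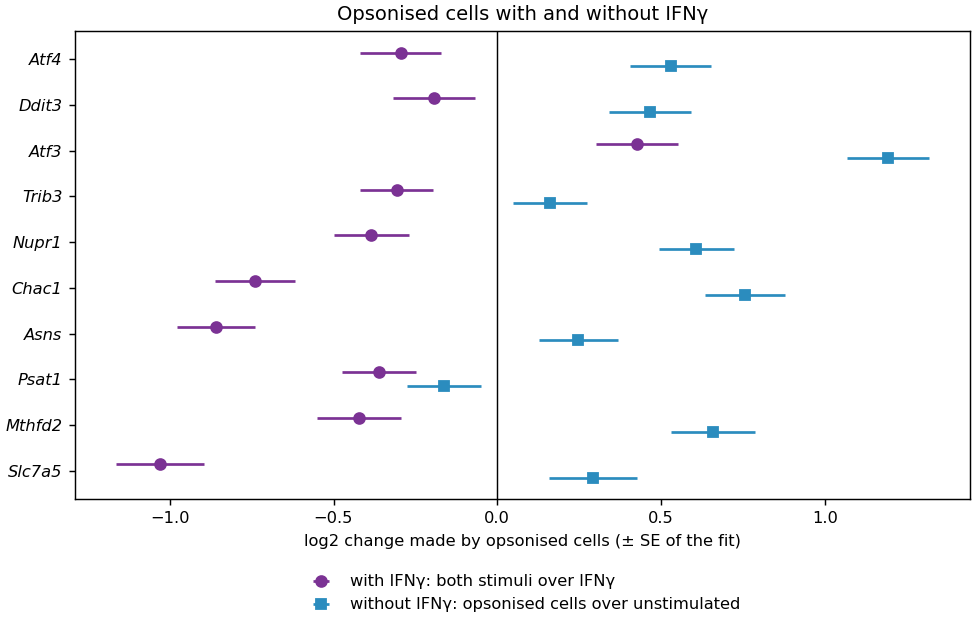
Log2 change made by opsonised cells (x axis; bars are the standard error of the fit, 2 arrays per group) for the 10 genes, with IFNγ (circles, both stimuli over IFNγ) and without it (squares, opsonised cells over unstimulated). Circles lie left of squares for every gene, from -1.03 (Slc7a5) to 0.43 (Atf3) with IFNγ and from -0.16 (Psat1) to 1.19 (Atf3) without.

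Other genes of the pathway were taken from 6 lists that hold 71 genes, of which 62 had a probe and 48 were tested. They did not move as a block. With IFNγ 10 of the 48 rose and 2 fell (median log2 change 0.04, all features -0.05), against 10.0% of all features called higher and 13.1% lower. With opsonised cells 10 rose and 1 fell (median 0.08, all features -0.02), against 6.38% and 6.56% of all features. With both stimuli against IFNγ 4 rose and 6 fell, against 6.97% and 7.99% of all features (median -0.05, all features -0.01). In the test of the interaction 0 of the 48 were positive and 5 negative, against 1.20% and 1.40% of all features.

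The eIF2α kinases and their counterparts were touched at different points by the stimuli. Of 6 tested genes, 1 rose and 1 fell with IFNγ. Eif2ak2, the interferon-inducible RNA-sensing kinase PKR, had 3640 and 3640 with both stimuli, 4197 and 4058 with IFNγ, 1707 and 1916 with opsonised cells, and 1514 and 1718 unstimulated. It rose 2.56-fold with IFNγ (limma adjusted p = 7.28e-10). The heme-sensing kinase gene Eif2ak1 (-0.04 ± 0.11 with IFNγ, 0.16 ± 0.11 with opsonised cells) and the ER kinase gene Eif2ak3 (-0.09 ± 0.14 and 0.20 ± 0.14) did not pass the test with either stimulus alone. The amino acid-sensing kinase gene Eif2ak4 was below the floor.

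Opsonised cells raised 2 of these 6 genes, Ppp1r15a and Impact, with and without IFNγ. Whether either rise bears on the levels of the chosen genes was not tested. Ppp1r15a (GADD34, which directs a phosphatase to eIF2α) had 790.8 and 932.6 with both stimuli, against 435.2 and 427.5 with IFNγ, a log2 change of 0.99 ± 0.12 (limma adjusted p = 3.32e-06). It had 814.3 and 821.5 with opsonised cells, against 391.8 and 465.1 unstimulated, a log2 change of 0.94 ± 0.12 (adjusted p = 9.44e-06). Impact, an inhibitor of the activation of the kinase GCN2, rose by 0.68 ± 0.11 over IFNγ (adjusted p = 8.24e-05) and by 0.75 ± 0.11 over unstimulated cells (adjusted p = 3.45e-05). These 4 calls held in all 16 alternatives. Impact fell with IFNγ alone (-0.31 ± 0.11, adjusted p = 0.0456), a call kept in 9 of 16 alternatives. It was lost with cyclic loess (adjusted p = 0.2) and with no filter on dim probes (0.101), among others.

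Of 5 tested genes of amino acid and one-carbon synthesis, 1 rose with IFNγ and fell with both stimuli against IFNγ, as the chosen genes were picked to do. This was Aldh18a1, which starts proline synthesis, with 436.6 and 471.9 under both stimuli, 664.3 and 628.8 with IFNγ, 438.9 and 494.5 with opsonised cells, and 418.1 and 412.8 unstimulated. Its log2 change was 0.64 ± 0.12 with IFNγ (limma adjusted p = 0.000256) and -0.51 ± 0.12 with both against IFNγ (adjusted p = 0.004, but 0.0639 without IFNγ replicate 1). The serine synthesis gene Phgdh (0.12 ± 0.11 with IFNγ) and the mitochondrial Shmt2 (0.20 ± 0.12) did not pass the test, and Psph was below the floor.

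Of 5 tested amino acid transporter genes 3 rose with opsonised cells. The cystine transporter gene Slc7a11, which is also an NRF2 target, had 970.9 and 883.9 with both stimuli and 186.2 and 176.4, below the floor, with IFNγ, at least 4.52-fold higher with both. It had 2137 and 2200 with opsonised cells, against 225.6 and 204, near the floor, unstimulated (log2 change 3.34 ± 0.12, limma adjusted p = 1.08e-15). The glycine transporter gene Slc6a9 was at least 1.39-fold higher with opsonised cells than unstimulated (adjusted p = 1.9e-05) and did not pass the floor with both stimuli. Slc1a4, a neutral amino acid transporter gene, was at least 1.11-fold higher (adjusted p = 0.0206), a call lost without either opsonised or either unstimulated array (0.0515 to 0.175). Slc38a2, a glutamine and alanine transporter gene induced by amino acid lack, fell with both stimuli against IFNγ (-0.68 ± 0.12, adjusted p = 0.000349), though not when its probes were averaged (-0.21, adjusted p = 0.193). The LAT1 partner gene Slc3a2 was near the floor and was not called in any of these 3 comparisons.

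Of 10 cytosolic aminoacyl-tRNA synthetase genes, which charge tRNA with amino acids and include many ATF4 targets, 3 rose with IFNγ. Wars, the tryptophan enzyme gene and a known IFNγ target, had 4706 and 4696 with IFNγ, against 849.3 and 694.3 unstimulated (6.12-fold, limma adjusted p = 8.37e-15). Gars, the glycine enzyme gene, rose by 0.57 ± 0.10 (adjusted p = 7.82e-05). With both stimuli against IFNγ 1 of the 10 fell, Iars (-0.54 ± 0.14, adjusted p = 0.00852), a call lost without IFNγ replicate 2 (0.0918), without replicate 1 of both stimuli (0.0968) and with probes averaged (0.131). With opsonised cells alone 1 rose, Eprs (0.59 ± 0.14, adjusted p = 0.00594, but 0.153 without unstimulated replicate 2 and 0.0906 without opsonised replicate 2).

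Of 10 other ATF4 and CHOP target genes 2 rose and 1 fell with IFNγ. The median log2 change of the 10 was -0.07 with IFNγ (all features -0.05) and 0.02 with opsonised cells (all features -0.02). With both stimuli against IFNγ it was 0.08 (all features -0.01), so this list as a whole had neither the rise nor the drop of the chosen genes. Cebpb, whose protein is a dimer partner of ATF4, rose by 0.88 ± 0.11 with IFNγ (limma adjusted p = 8.72e-07) and by 1.07 ± 0.11 with opsonised cells (adjusted p = 1.59e-07). Jdp2, a repressor of the same dimer family, rose by 1.18 ± 0.12 with IFNγ (adjusted p = 5.22e-08). Among 10 genes, opsonised cells raised Cebpb and Eif4ebp1 (0.45 ± 0.11, adjusted p = 0.00651, but 0.143 without unstimulated replicate 2). They lowered the cell death gene Bbc3 (-0.60 ± 0.12, adjusted p = 0.00145), which was not called when its probes were averaged (-0.23, adjusted p = 0.167). With both stimuli against IFNγ Bbc3 (-0.47 ± 0.12, adjusted p = 0.00995) and the leucine sensor gene Sesn2 (-0.38 ± 0.10, adjusted p = 0.0148) fell. Sesn2 was near the floor, at 207.3 and 191.7 with both stimuli and 262.7 and 255.1 with IFNγ. Both calls were lost without IFNγ replicate 1 (0.15 and 0.108) and without replicate 2 of both stimuli (0.181 and 0.112), that of Sesn2 also without IFNγ replicate 2 (0.0649), and that of Bbc3 also with probes averaged (0.431).

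The last list holds ER chaperones and genes assigned to the XBP1 and ATF6 arm of ER stress. The promoter of Herpud1 held the letters of the C/EBP-ATF core. Whether the list holds ATF4 targets too was not tested. Of the 12 tested genes in the list 1 rose with IFNγ, 2 rose with opsonised cells, and 1 rose and 1 fell with both stimuli against IFNγ. The median log2 changes were 0.04, -0.01 and 0.02. Creld2, an ER stress-induced gene, was 1 of the called genes in all 3 comparisons (0.40 ± 0.13 with IFNγ, 0.68 ± 0.13 with opsonised cells, 0.47 ± 0.13 with both against IFNγ). The last had a limma adjusted p = 0.0117, but 0.128 without IFNγ replicate 1 and 0.0829 without replicate 2 of both stimuli. Calr rose with opsonised cells (0.45 ± 0.14, adjusted p = 0.0329, but 0.304 without unstimulated replicate 2 0.299 without opsonised replicate 2 and 0.057 with probes averaged). Herpud1 fell with both against IFNγ (-0.45 ± 0.11, adjusted p = 0.00548, but 0.0549 without IFNγ replicate 2 and 0.0532 without replicate 2 of both stimuli). The chaperone genes Hsp90b1 (0.11 ± 0.10 with IFNγ, 0.03 ± 0.10 with opsonised cells), Dnajb9 (-0.19 ± 0.12 and -0.13 ± 0.12) and Pdia4 (0.11 ± 0.13 and 0.23 ± 0.13) did not pass the test.

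Of the 12 pathway calls with IFNγ, 6 were lost without IFNγ replicate 2: Lars (0.41 ± 0.13, limma adjusted p = 0.0207, then 0.144), Creld2 (adjusted p = 0.0211, then 0.17), Slc1a4 (0.0151, then 0.243), Slc6a9 (0.0271, then 0.229), Atf5 (-0.36 ± 0.12, 0.0306, then 0.102) and Impact (0.0456, then 0.2). Each was also lost without at least 1 other array, with adjusted p-values of at most 0.361. Slc1a4 and Slc6a9 were below the floor on both unstimulated arrays, with IFNγ levels at least 1.10-fold and 1.05-fold higher.

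**Figure D4:**
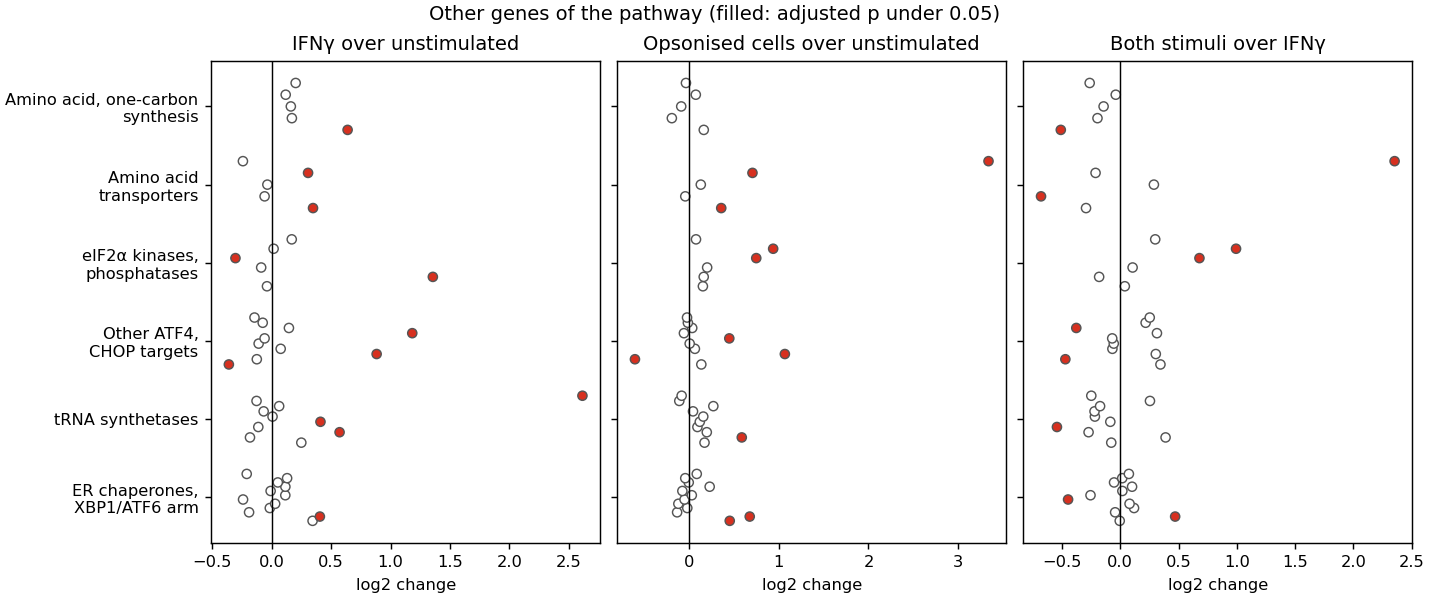
Log2 change (x axis) of the 48 tested genes of 6 pathway lists in 3 comparisons; each point is a gene and filled points passed limma's test (adjusted p under 0.05). Most points are open in every list, and the largest changes are Wars with IFNγ (2.61) and Slc7a11 with opsonised cells (3.34).

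The features whose log2 levels over the 8 arrays were most like the mean profile of the 8 genes other than Atf3 and Ddit3 included 2 of the pathway lists, Gars (Pearson r = 0.959) and Aldh18a1 (0.952). Higher were the protocadherin gene Pcdh1 (0.978), Flrt2 (0.967), Fam222b (0.961) and the unnamed probes ILMN_1244279 (0.968) and ILMN_1225528 (0.965). Kat14 (0.952), the collagen prolyl hydroxylase gene P4ha1 (0.949) and 2310011J03Rik (0.949) completed the first 10. These values describe 8 arrays in 4 groups, which all features share, and have no test. The mean intensity of Pcdh1 (199.8) was below the floor, and those of ILMN_1244279 (216.2) and P4ha1 (223.1) were just above it. Within the set itself, Slc7a5 (0.413) was least like the mean profile and Chac1 (0.963) most. Both genes are themselves part of that mean, so their values cannot be set beside those of the outside features.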

How the data were processed

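Expression was measured on 8 Illumina MouseRef-8 arrays. Used here were the deposited intensity values of 25697 probes. The submitters' processing notes name GenomeStudio, whose release and options were not given in the sources used here. Judging by the values, which matched to within 0.96% at each rank, arrays had been quantile normalized without background subtraction. A second deposited table was not used, because its 16 per-sample columns match no sample's labels.

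Groups and replicate numbers came from the sample titles. Log2 intensities were fitted with limma 3.58.1 (R 4.3.3; 4 group means over 8 arrays, eBayes with intensity trend, 22.5 total degrees of freedom) with Benjamini-Hochberg adjustment over all features of a comparison and a threshold of 0.05. Probes had to exceed the floor (mode of all log2 values plus 1.64 SD of those below it, 204.9) on both arrays of 1 group, which left 11633 probes. The brightest probe per gene gave 8857 features (8185 named). Array annotation gave 23978 probes 1 symbol, 0 several and 1719 none; 23962 Entrez identifiers matched the RefSeq table. A change against a group with both arrays below the floor is given as "at least N-fold", taking the floor or the dim probe's own signal, whichever was higher. Pathway genes named are, per list and comparison, up to 4 with the smallest adjusted p in each direction among those called, plus uncalled genes named after their values were seen, and the 10 features most like the set's mean profile. The genes of the set and the lists were chosen with earlier results of these data known. The fit was tested on simulated data. A further planned motif search is not reported here. Alternatives were background correction, normalization, filter, probe choice, prior, replicate block and leaving out each array.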

Additional observations from a re-analysis of the deposited data

Results flagged for a closer look

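For 5 pathway genes outside the chosen set the interaction, the log2 change by opsonised cells with IFNγ minus that without, passed limma's test (adjusted p under 0.05). All 5 interactions were negative. Slc7a11 had a log2 change of 2.35 by opsonised cells with IFNγ and 3.34 without it (interaction -0.98 ± 0.17, adjusted p = 0.0011). The IFNγ arrays were below the floor and the unstimulated ones (225.6 and 204) near it, so neither the 2.35 nor the 3.34 is an exact size. Over the alternatives the change without IFNγ was 3.26 to 4.44. The interaction call was lost after normexp correction (limma adjusted p = 0.127). Slc6a9 had -0.21 with IFNγ and 0.71 without (interaction -0.92 ± 0.14, adjusted p = 0.000273) and Slc1a4 -0.29 and 0.36 (-0.65 ± 0.14, adjusted p = 0.0132). Both genes were below the floor with both stimuli and unstimulated, so each of these differences is taken against a probe not above background and none is an exact size. When probes had to pass the floor on all 8 arrays, Slc7a11, Slc6a9 and Slc1a4 were left out and not tested. The other 2 of the 5, Cebpb and Aldh18a1, were called. Cebpb had 0.31 and 1.07 (-0.76 ± 0.15, adjusted p = 0.00566) and Aldh18a1 -0.51 and 0.17 (-0.68 ± 0.17, adjusted p = 0.0295). The calls of Slc6a9 and Cebpb held in every alternative that tested them (15 and 16).

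For 7 of the chosen genes both arrays with both stimuli lay below both IFNγ arrays, and both arrays with opsonised cells alone lay above both unstimulated arrays, as for 3.27% of all features. The difference was not tested, since the choice of genes used 1 of the 2 comparisons. The interaction was -1.50 for Chac1, -1.11 for Asns, -1.08 for Mthfd2, -0.99 for Nupr1, -0.82 for Atf4, -0.66 for Ddit3 and -0.47 for Trib3. In Asns and Trib3 the rise with opsonised cells alone was narrow and was not called.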

How the results depend on the processing

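The number of arrays and the low signal of several genes limit these results. Each of the 10 genes kept the sign of its IFNγ difference, of its difference between both stimuli and IFNγ, and of its interaction in all 16 alternatives. The first 2 of these comparisons chose the genes and the interaction holds 1 of them, so the kept signs carry no further weight. Some alternatives, such as the fit without intensity trend and the replicate block, cannot alter these log2 differences. Normexp correction changed the median log2 difference of the set to 1.12 with IFNγ (0.83 uncorrected) and to -0.45 for both stimuli against IFNγ (-0.37 uncorrected). The IFNγ median was 0.89 with cyclic loess and 0.79 after centring on housekeeping genes. The pathway genes with an interaction call numbered 5, and 8 after centring on housekeeping genes and 2 when probes had to pass the floor on all 8 arrays, where fewer features are tested. Leaving out 1 array at a time gave IFNγ medians of 0.78 to 0.96 and medians of -0.40 to -0.35 for both stimuli against IFNγ. It gave 4 to 6 called genes of the set with opsonised cells, and 6 to 12 (IFNγ), 7 to 12 (opsonised cells), 7 to 12 (both against IFNγ) and 3 to 5 (interaction) called pathway genes. Over all features the calls were 1315 to 2169 with IFNγ (2052 with all arrays), 675 to 1197 with opsonised cells (1146), 727 to 1428 for both against IFNγ (1325) and 102 to 249 for the interaction (230). The lowest came without IFNγ replicate 2, unstimulated replicate 2, IFNγ replicate 1 and unstimulated replicate 2, in that order. The interaction calls of Aldh18a1 (adjusted p up to 0.145) and Slc1a4 (up to 0.101) were lost in 6 and 4 such fits, and that of Slc7a11 after normexp correction (adjusted p = 0.127). The share of calls that were higher moved from 43.4% to 54.5% with cyclic loess and to 35.9% after centring on housekeeping genes for IFNγ, and after that centring from 49.3% to 63.5% for opsonised cells and from 46.1% to 28.5% for the interaction. Replicates share only a number across groups: deviations of same-numbered arrays correlated at -0.0432 to 0.0439 over 6 pairs of groups. With the replicate number as a block, 1093 features were called with opsonised cells, 6 of the set among them. Over all alternatives, calls of single pathway genes were kept 536 times and lost 62 times, with no change of sign. Where a call was lost the cause was not tested.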

Other observations

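The C/EBP-ATF core TGATGNAA was searched in the promoters of the pathway lists too. Promoters of 57 list genes were matched by symbol, and 13 of them held the core (22.8%, against 4.51% of all genes). They were the tRNA synthetase genes Aars, Gars, Iars, Tars and Yars, the transporter genes Slc1a4 and Slc7a11, Got1, Pycr1, Herpud1, Jdp2, Vldlr and Fgf21. Of these, Yars, Vldlr and Fgf21 were below the floor and Pycr1 had no probe. Gars and Jdp2 rose with IFNγ in all alternatives and Slc7a11 rose with opsonised cells. Slc1a4, near the floor, rose with each stimulus alone, and Iars and Herpud1 fell with both stimuli against IFNγ. The calls of these last 3 genes were lost without single arrays. Aars (0.25 ± 0.12 with IFNγ), Got1 (0.17 ± 0.11) and Tars (-0.13 ± 0.12) did not pass the test. The NRF2 core TGACNNNGC was found in 16 of the 57 genes (28.1%, against 14%). These are counts of letters, with no test, and the lists were drawn up as genes of the pathway.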
